A study of Mus musculus with 8 samples.

Results

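Desmosomes are the spot-like junctions that rivet epithelial cells to each other and anchor their keratin filaments. Their transcripts were examined through 9 genes chosen by symbol among the 53379 genes counted: the plakin genes Dsp and Ppl, the armadillo-protein genes Jup, Pkp1, Pkp2 and Pkp3, the cadherin genes Dsg2 and Dsc2, and the tetraspan gene Perp. Each symbol matched 1 Ensembl gene, and all 9 passed the filter on low counts. Messenger RNA was sequenced from 4 murine mammary carcinoma lines of C57BL/6 background, with 2 libraries per line, all grown as adherent monolayers with no treatment named. Lines pB2 and pB3 came from tumours of MMTV-PyMT mice, in which the mammary tumour virus promoter drives the polyoma middle T oncogene in mammary epithelium. Lines Epcam hi and 687g came from MMTV-PyMT-Snail-IRES-YFP reporter mice, so every line carries the PyMT oncogene. Each line derives from a tumour. Whether a line is clonal, or its libraries separate cultures, is not given in the sources used here. A p-value here therefore reflects the spread between libraries of the same line, which may be technical. That spread was estimated over all 4 lines, so a comparison of 2 lines also draws on the libraries of the others.

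In a desmosome the cadherins, desmogleins and desmocollins, bind their partners on the next cell and pass through the membrane. Inside the cell plakoglobin (the product of Jup) and the plakophilins bind the cadherin tails, and desmoplakin (from Dsp) ties that plaque to keratin. Loss of these junctions is a textbook feature of the epithelial-mesenchymal transition, the change in cell state that the series' title names as its subject.

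Promoter sequence was at hand in the RefSeq tables of GRCm38.p6 for 2 of the 9 genes, Dsp and Jup, which are shown because they are plaque genes with different courses across the lines, the first called in both pairs of a mouse model and the second in neither. Each window runs from 250 bases before the annotated start to 20 bases after it, on the gene's own strand. Capitals mark CAGGTG, the E-box letters that Zeb and Snail family factors are known to bind, and GGGCGG, a GC box, each searched on both strands (as CACCTG and CCGCCC on the other). The Dsp window lies at chr13:38151044-38151313 on the plus strand and the Jup window at chr11:100397771-100398040 on the minus strand. RefSeq and GENCODE, which gave the gene positions below, place the start of Jup differently. All of the Jup window lies beyond the gene's end in GENCODE, 100397763.
Dsp: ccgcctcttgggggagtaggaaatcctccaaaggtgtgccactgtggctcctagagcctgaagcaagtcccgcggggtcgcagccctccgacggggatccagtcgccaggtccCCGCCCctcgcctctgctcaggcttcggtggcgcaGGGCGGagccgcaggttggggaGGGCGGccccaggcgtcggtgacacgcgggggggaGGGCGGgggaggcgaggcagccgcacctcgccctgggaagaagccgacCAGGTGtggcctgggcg
Jup: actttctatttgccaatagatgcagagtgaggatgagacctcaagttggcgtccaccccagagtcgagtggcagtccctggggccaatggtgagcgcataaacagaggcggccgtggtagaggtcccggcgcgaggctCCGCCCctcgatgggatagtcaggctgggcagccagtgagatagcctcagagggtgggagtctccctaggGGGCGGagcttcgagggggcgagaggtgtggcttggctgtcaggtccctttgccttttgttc
The Dsp window held 1 CAGGTG, which begins 4 bases into the transcript, and 4 GC boxes. The Jup window held 2 GC boxes and neither CAGGTG nor any other CANNTG. Among 32851 promoter windows of this length, 18.4% held CAGGTG, 34.1% held GGGCGG and 68.9% held CANNTG, a pattern that includes CAGGTG. These matches describe letters only.

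The libraries held 12442730 to 19149916 counts, and 3 counts in one equal 0.159 to 0.222 CPM, the unit of library-scaled counts used throughout. The libraries of Epcam hi stood furthest apart, with 13.4% of tested genes over 2-fold apart against 2.96% to 6.32% in the other lines. Of 11 mammary epithelial markers, 11 had counts in pB2, Epcam hi and 687g and 9 in pB3 (Elf5 and Trp63 were at 0). Elf5 and Trp63 averaged 51.6 and 34.6 CPM in pB2, but had 1 and 2 counts in Epcam hi and 4 each in 687g. Krt5 had 3 to 21 counts per line. The summed level of the 11 ran from 1298 CPM in a pB2 library to 5310 in one of Epcam hi, with 687g at 1317 to 1487 CPM. In 687g the defining junction markers Cdh1 and Epcam were low, at 1.32 ± 0.819 and 3.77 ± 0.111 CPM (SD, n = 2), while Krt18 stood at 1115 ± 64.5 CPM. Vim, the mesenchymal filament vimentin, was at 14.0 ± 0.184 CPM for pB2 and 26.9 ± 7.88 for Epcam hi, against 2371 ± 86.6 for pB3 and 2862 ± 745 for 687g. Leukocyte markers summed to at most 3.74 CPM except in Epcam hi (14.5 to 36.4, nearly all Cd68, with Ptprc at 9 counts), and endothelial markers to at most 7.90 CPM. Fibroblast markers summed to 65.5 to 85.0 CPM for pB2, 32.7 to 34.7 for pB3, 4.22 to 4.76 for Epcam hi and 16.0 to 21.8 for 687g. The highest by mean were Pdgfra for pB2 and Epcam hi (51.6 and 2.24 CPM), Fbln1 for pB3 (17.1) and Pdgfrb for 687g (10.8). Col1a1 was at 18.4 CPM in pB2 and Pdgfra at 14.5 in pB3, while Dpt was at 0 in every line and Col1a2 in all but Epcam hi. The part of these cell type markers in the results was not tested. In bulk RNA, fewer cells with a transcript and less of it per cell cannot be told apart.

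**Figure D1:**
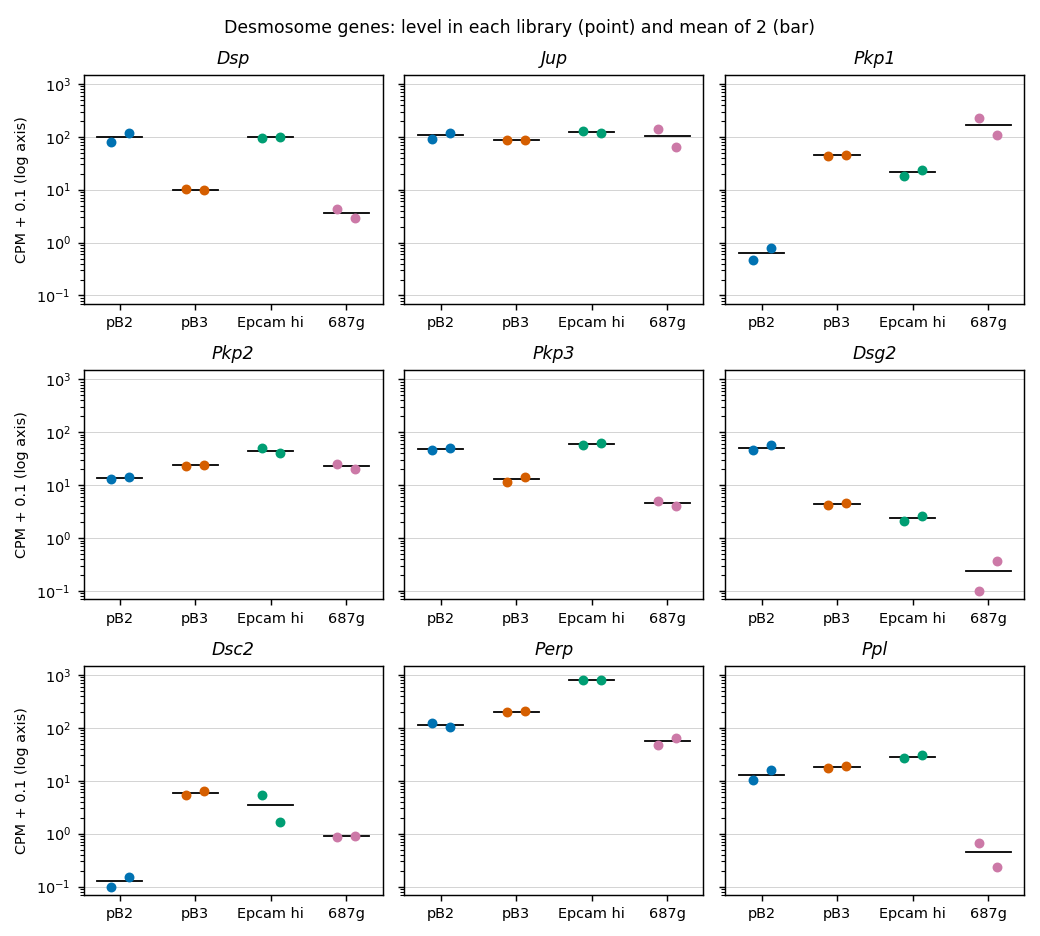
Level of each desmosome gene in the 8 libraries, as CPM plus 0.1 on a log axis. Points are libraries and bars are the means of 2. Dsp and Pkp3 are high in pB2 and Epcam hi, Pkp1 is lowest in pB2 and highest in 687g, Dsg2 is high in pB2, and Jup has no called difference between lines.

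The plaque linker Dsp was high in pB2 and Epcam hi and low in pB3 and 687g. The pB2 libraries had 80.1 and 117 CPM, those of pB3 10.2 and 9.59, those of Epcam hi 92.9 and 101, and those of 687g 4.30 and 2.75. The pB2 and Epcam hi values overlapped, and every library of pB3 and 687g lay below all of them. Dsp fell 9.95-fold in pB3 against pB2, a log2 fold change of -3.32 ± 0.25 (edgeR, adjusted p = 9.99e-08). After a log2 fold change, ± gives a standard error derived from the F test. Dsp fell 27.5-fold in 687g against Epcam hi (-4.77 ± 0.27, adjusted p = 9.53e-09). The fall within the second pair was larger by 1.45 on the log2 scale (difference between the pairs, -1.45 ± 0.34, adjusted p = 0.00402). Epcam hi and pB2 did not differ by the test, with an interval of the log2 difference from -0.49 to 0.44. The gene lies on chromosome 13 from 38151294 to 38198577 (GRCm38), and its longest annotated transcript has 24 exons.

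Jup, whose product also binds classical cadherins, was the member with no call in any of the comparisons. Jup stood at 92.6 and 119 CPM for pB2, 85.4 and 88.4 for pB3, 129 and 115 for Epcam hi, and 141 and 65.2 for 687g. The 687g libraries were 2.16-fold apart and enclosed the values of every other line. The 95% interval of the log2 difference was -0.88 to 0.31 for pB3 against pB2 and -0.84 to 0.35 for 687g against Epcam hi. Leaving out a 687g library changed this. Without 687g replicate 1, Jup was lower in 687g than in Epcam hi (-0.88, adjusted p = 0.00774) and than in pB2 (-0.69, adjusted p = 0.0175), and without replicate 2 it was higher than in pB3 (0.70, adjusted p = 0.0265). It was also lower in pB3 than in Epcam hi when those lines alone were fitted (-0.48, adjusted p = 0.0282) and without 687g replicate 1 (-0.48, adjusted p = 0.0467). Jup lies on chromosome 11 from 100368958 to 100397763.

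The 3 plakophilin genes took 3 different courses. Pkp3, found widely in epithelia, followed Dsp, with 45.6 and 49.4 CPM for pB2, 11.4 and 14.2 for pB3, 58.0 and 61.4 for Epcam hi, and 4.97 and 3.90 for 687g. The libraries of pB3 and 687g lay below those of pB2 and Epcam hi without overlap. Pkp3 fell 3.71-fold in pB3 against pB2 (-1.89 ± 0.20, adjusted p = 3.24e-06) and 13.5-fold in 687g against Epcam hi (-3.74 ± 0.22, adjusted p = 1.33e-08), and the difference between the pairs was -1.85 ± 0.29 (adjusted p = 1.56e-04). Over the 8 libraries the log2 levels of Dsp and Pkp3 had r = 0.988, a description of 4 lines with 2 libraries each.

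Pkp1, typical of the upper layers of stratified epithelia, ran the other way. The pB2 libraries had 0.370 and 0.690 CPM (5 and 13 counts), those of pB3 43.8 and 46.0, those of Epcam hi 18.4 and 23.8, and those of 687g 228 and 108. No library of 1 line overlapped those of another, and all 3 steps of the order 687g, pB3, Epcam hi, pB2 passed the test. Pkp1 rose 84.7-fold in pB3 against pB2 (6.33 ± 0.43, adjusted p = 4.56e-08) and 7.96-fold in 687g against Epcam hi (2.99 ± 0.31, adjusted p = 3.49e-06). It was also 39.7-fold higher in Epcam hi than in pB2, both low in Vim (5.24 ± 0.44, adjusted p = 2.75e-07). Between pB3 and Epcam hi the step was 2.13-fold (1.09 ± 0.29, adjusted p = 0.0121), which did not pass when Epcam hi replicate 1 was left out (0.92, adjusted p = 0.0559). Without 687g replicate 1, which had 2.12 times the CPM of replicate 2, the rise within the second pair was 2.37 and that over pB3 was 1.27. The difference between the pairs was -3.33 ± 0.54 (adjusted p = 2.37e-04), and -3.95 without that library. Pkp1 lies on chromosome 1 from 135871395 to 135919207.

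Pkp2, the plakophilin of simple epithelia and heart muscle, varied least of the 3. Pkp2 stood at 13.3 and 14.3 CPM for pB2, 23.3 and 24.2 for pB3, 49.3 and 39.8 for Epcam hi, and 25.0 and 20.4 for 687g. The values of pB3 and 687g overlapped, and those of pB2 and Epcam hi lay below and above them. Pkp2 rose 1.73-fold in pB3 against pB2 (0.79 ± 0.20, adjusted p = 0.00536). That call was lost when pB2 replicate 1 (adjusted p = 0.0536) or pB3 replicate 2 (adjusted p = 0.0571) was left out. It fell 1.96-fold in 687g against Epcam hi (-0.97 ± 0.19, adjusted p = 0.00136). The difference between the pairs was -1.75 ± 0.28 (adjusted p = 1.94e-04). Pkp2 lies on chromosome 16 from 16213318 to 16272712 and Pkp3 on chromosome 7 from 141078218 to 141090510.

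Per kilobase of exon, the make-up of the plakophilin transcripts thus differed between the lines. Pkp3 made up 83.2% and 83.0% of the plakophilin reads per kilobase in the pB2 libraries and Pkp1 0.486% and 0.833%. In pB3 Pkp1 had 53.7% and 52.0% and Pkp3 19.5% and 22.3%. In Epcam hi Pkp3 led with 55.5% and 58.3%, and Pkp1 had 12.7% and 16.2%. In 687g Pkp1 held 88.2% and 81.4% and Pkp3 2.68% and 4.10%. The Pkp2 share ran from 9.09% in 687g replicate 1 to 31.9% in Epcam hi replicate 1. Within each line the leading plakophilin was the same in both libraries. With 2 libraries per line no test was made on these shares. The sum of the 3 genes was 15.8 ± 0.924 CPM per kilobase for pB2, 16.9 ± 0.980 for pB3, 29.0 ± 0.167 for Epcam hi and 38.8 ± 17.7 for 687g (SD, n = 2), and the 687g libraries, 51.4 and 26.3, lay on both sides of those of Epcam hi.

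**Figure D2:**
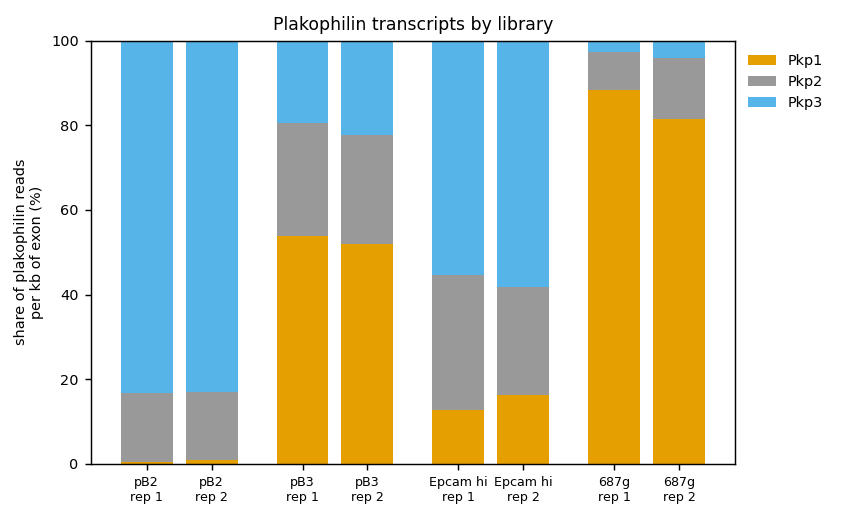
Share of Pkp1, Pkp2 and Pkp3 in their summed reads per kilobase of exon, in percent, for each of the 8 libraries. Pkp3 is over 80% in pB2 and Pkp1 over 80% in 687g, with pB3 and Epcam hi between them.

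The cadherin genes Dsg2 and Dsc2 were high in different lines. Dsg2, the desmoglein of simple epithelia, reached 45.9 and 57.0 CPM in the pB2 libraries, against 4.17 and 4.60 for pB3, 1.97 and 2.57 for Epcam hi, and 0 and 0.269 for 687g (0 and 4 counts, where 0 allows up to 0.167 CPM). Only the pB2 libraries were above 5 CPM, so Epcam hi did not share the high level of pB2 that it shared for Dsp and Pkp3. Dsg2 fell 11.7-fold in pB3 against pB2 (-3.55 ± 0.31, adjusted p = 4.89e-07) and was 22.7-fold lower in Epcam hi than in pB2 (-4.49 ± 0.33, adjusted p = 7.29e-08). The step from Epcam hi to 687g was also a fall (-4.14 ± 0.60, adjusted p = 8.83e-05), whose size was -3.03 with 687g replicate 1 left out and -8.19 with replicate 2 left out, the latter against a library at 0. The difference between the pairs was not called (-0.59 ± 0.74, adjusted p = 0.577), and was 0.52 and -4.63 without the same replicates, with adjusted p of 0.672 and 0.0459 in turn. Between pB3 and Epcam hi the log2 difference of 0.94 ± 0.34 just missed the threshold (adjusted p = 0.0531); it passed with DESeq2 (adjusted p = 0.0265), without the filter (0.0117) and with Epcam hi replicate 2, 687g replicate 1 or 687g replicate 2 left out (0.0295, 0.0152 and 0.0150).

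Dsc2, its desmocollin counterpart, had 0 and 1 count in the pB2 libraries (0 allows up to 0.222 CPM), 5.24 and 6.22 CPM in those of pB3, 5.35 and 1.53 in those of Epcam hi, and 0.782 and 0.806 in those of 687g. It was thus lowest in the line where Dsg2 was highest. By count sums Dsc2 was 186-fold higher in pB3 than in pB2 (exact 95% counting interval 32.9 to 7378; edgeR, adjusted p = 1.44e-05) and 104-fold higher in Epcam hi than in pB2 (interval 18.2 to 4130; adjusted p = 4.63e-05). In 687g Dsc2 was 4.33-fold lower than in Epcam hi (-2.09 ± 0.57, adjusted p = 0.0110). This call did not hold without Epcam hi replicate 1 (-0.94, adjusted p = 0.132) or without 687g replicate 1 or 2 (adjusted p = 0.0711 and 0.0613). Between pB3 and Epcam hi no call was made (adjusted p = 0.293), but without Epcam hi replicate 1 it was higher in pB3 (1.90, adjusted p = 0.00139). Fitted log2 values against pB2 rest on 1 count: that of pB3 was 7.22, or 6.56 and 9.49 with pB2 replicate 1 or 2 left out. That of Epcam hi was 6.47, or 5.78 and 8.68 with the same libraries left out and 5.33 without Epcam hi replicate 1. Both genes lie in the cadherin cluster of chromosome 18, Dsc2 from 20030633 to 20059554 and Dsg2 from 20558074 to 20604521.

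The other 7 desmosomal cadherin genes had few counts or none. Dsc1, Dsg1b and Dsg4 had 0 counts in all libraries, Dsc3, Dsg1a and Dsg1c had 1 count each over the 8 libraries, and Dsg3 had 1 count in Epcam hi and 6 in pB3. All 9 desmosomal cadherin genes together summed to 6.23 ± 0.952 CPM per kilobase for pB2, 1.64 ± 0.180 for pB3, 0.940 ± 0.440 for Epcam hi and 0.175 ± 0.0379 for 687g (SD, n = 2), with no overlap between lines. The line with the lowest cadherin sum, 687g, had a plakophilin sum above those of pB2 and pB3 in both libraries. In Epcam hi the cadherin sum was below that of pB3 while Dsp was 9.79-fold higher than in pB3 (-3.29 ± 0.25 for pB3 against Epcam hi, adjusted p = 2.46e-07). The sums were not tested, and were 1.25 and 0.629 in the Epcam hi libraries and 1.52 and 1.77 in those of pB3. Neither Dsg2 nor Dsc2 was called between these lines in the full fit.

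Perp, a tetraspan membrane protein of desmosomes and a known target of p53 and p63, was highest in Epcam hi. Its libraries stood at 122 and 104 CPM for pB2, 196 and 207 for pB3, 798 and 801 for Epcam hi, and 47.6 and 65.0 for 687g. The lines did not overlap, and each step of the order Epcam hi, pB3, pB2, 687g passed the test. Perp rose 1.79-fold in pB3 against pB2 (0.84 ± 0.19, adjusted p = 0.00231), or 0.72 with an adjusted p of 0.0528 when pB2 replicate 2 was left out, and fell 14.2-fold in 687g against Epcam hi (-3.83 ± 0.21, adjusted p = 6.48e-09). The difference between the pairs was -4.67 ± 0.28 (adjusted p = 1.49e-08). Per kilobase of exon Perp was the most abundant member in pB2, pB3 and Epcam hi, at 57.9 ± 6.32, 103 ± 3.90 and 410 ± 1.36 CPM per kilobase. In 687g its 28.8 ± 6.29 overlapped with Pkp1 at 33.4 ± 16.9. Lengths here count all annotated exons, and the order in 687g depends on them. Jup has 6436 bases of annotated exon but 3205 in its longest transcript.

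Ppl, which encodes periplakin, a linker of the cornified envelope and of keratin, was nearly lost in 687g. Ppl stood at 10.1 and 15.6 CPM for pB2, 17.4 and 18.7 for pB3, 26.5 and 30.4 for Epcam hi, and 0.558 and 0.134 for 687g (10 and 2 counts). The 687g libraries lay far below all others. Ppl fell 82.2-fold in 687g against Epcam hi (-6.26 ± 0.41, adjusted p = 3.38e-08), with -7.62 and -5.62 without 687g replicates 1 and 2. In pB3 against pB2 it was not called (0.48 ± 0.27, adjusted p = 0.173; interval -0.10 to 1.07), although it was when those lines alone were fitted (0.49, adjusted p = 0.0261). It was lower in pB3 than in Epcam hi only when those lines alone were fitted (-0.65, adjusted p = 0.0222) or 687g replicate 1 was left out (-0.64, adjusted p = 0.0490), against 0.0834 in the full fit. The difference between the pairs was -6.75 ± 0.50 (adjusted p = 1.30e-07). Ppl lies on chromosome 16 from 5086291 to 5132421, and Perp on chromosome 10 from 18845020 to 18857073.

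**Figure D3:**
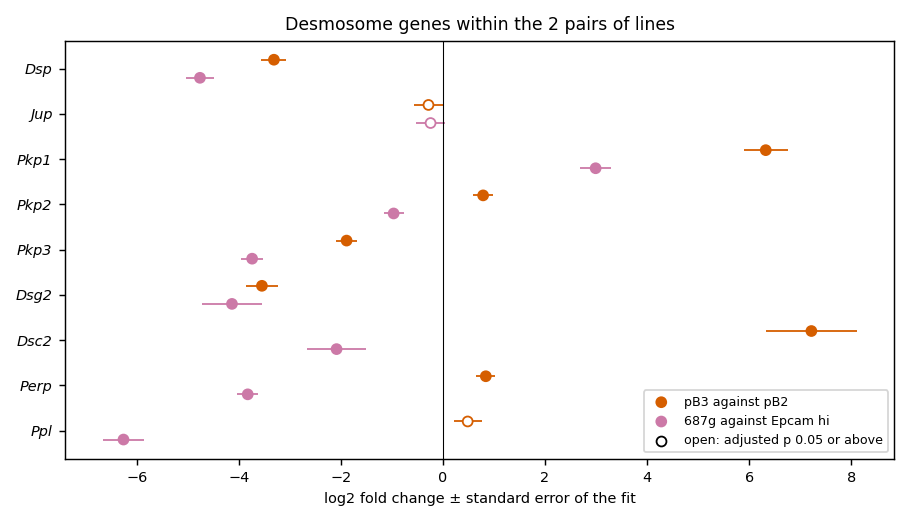
Log2 fold change of each desmosome gene in pB3 against pB2 and in 687g against Epcam hi. Bars are 1 standard error derived from the F test, and points are open where the adjusted p is 0.05 or above. Dsp, Pkp3 and Dsg2 are lower and Pkp1 higher in both pairs, and Pkp2, Dsc2 and Perp lie on opposite sides of 0.

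As a set, the genes did not fall together in the MMTV-PyMT pair. In pB3 against pB2, 4 of 9 rose (Pkp1, Pkp2, Dsc2 and Perp), 3 fell (Dsp, Pkp3 and Dsg2) and 2 were not called, with a median log2 fold change of 0.48 against 0.02 over all genes. Of all 15890 genes tested there, 44.8% were called, 21.6% higher and 23.2% lower. In 687g against Epcam hi, 1 rose (Pkp1), 7 fell and 1 was not called (Jup), with a median of -3.74 against -0.03 over all genes, where 36.4% of all genes were called, 18.4% higher and 18.0% lower. The test of the difference between the pairs called 7 of the 9, all more negative in the second pair, beside 37.7% of all genes called, 18.2% in the positive and 19.5% in the negative direction. Pkp2, Dsc2 and Perp changed direction, with a rise in the first pair and a fall in the second, though the calls of Pkp2 and Perp in the first pair and of Dsc2 in the second ended without single libraries, as given above.

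Across the mouse models, Epcam hi had 5 of the 9 genes higher than pB2 (Pkp1, Pkp2, Dsc2, Perp and Ppl), 1 lower (Dsg2) and 3 not called, where 51.4% of all genes were called (25.8% higher, 25.6% lower). The Ppl call there (1.14 ± 0.27, adjusted p = 0.00305) was lost with pB2 replicate 1 left out (0.84, adjusted p = 0.0635). Line 687g had 1 gene higher than pB3 (Pkp1), 6 lower and 2 not called (Jup and Pkp2), beside 25.8% of all genes called (12.8% higher, 12.9% lower). Dsp, Pkp3, Perp, Dsg2, Dsc2 and Ppl were the 6, from -1.47 ± 0.26 for Dsp (adjusted p = 8.26e-04) to -5.61 ± 0.41 for Ppl (adjusted p = 2.49e-07). In pB3 against Epcam hi 1 rose (Pkp1), 4 fell (Dsp, Pkp2, Pkp3 and Perp) and 4 were not called (29.4% of all genes called, 14.8% higher and 14.6% lower), and in 687g against pB2 3 rose (Pkp1, Pkp2 and Dsc2), 5 fell (Dsp, Pkp3, Dsg2, Perp and Ppl) and 1 was not called (52.3%, with 25.6% higher and 26.7% lower). Comparisons that share a line share its libraries.

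The lists of related genes that follow are to be read beside all genes tested, of which 21.6% rose and 23.2% fell in pB3 against pB2 (the first pair), and 18.4% rose and 18.0% fell in 687g against Epcam hi (the second). Among the other desmosome and envelope genes, 3 of 10 could be tested. Evpl, the envoplakin gene and partner of Ppl, fell in pB3 against pB2 from 6.37 ± 1.79 to 1.45 ± 0.242 CPM (-2.14 ± 0.36, adjusted p = 2.27e-04) and in 687g against Epcam hi from 236 counts to 2, which is 119-fold lower (counting interval 32.6 to 989). Pkp4, an armadillo relative, was not called in either pair (-0.43 ± 0.20 and -0.45 ± 0.20), although it was in the second without Epcam hi replicate 1 (-0.65, adjusted p = 0.0335). Cdsn, the corneodesmosin gene of cornified desmosomes, was higher in 687g than in Epcam hi (4.59 ± 3.54 against 0.250 ± 0.0442 CPM, log2 fold change 4.18 ± 0.75, adjusted p = 6.11e-04), with 3.05 and 4.83 without 687g replicates 1 and 2.

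Keratin genes, whose filaments attach to desmosomes, were divided; Krt5, Krt8, Krt14, Krt18 and Krt19 of this list are also among the epithelial markers. Of 14, 11 were tested: 7 rose and 3 fell in pB3 against pB2 (median 2.27, and 2.21 with genes at 0 held at their bound; 44.8% of all genes called), while 0 rose and 6 fell in 687g against Epcam hi (median -1.06; 36.4% of all genes called). The basal keratin gene Krt14 fell in both pairs (-3.80 ± 0.20 and -2.45 ± 0.33, adjusted p = 3.20e-09 and 4.78e-05), with 15 counts in 687g. Krt19 and Krt80 rose in the first pair (3.58 ± 0.20 and 2.88 ± 0.33) and fell in the second (-1.76 ± 0.29 and -1.71 ± 0.26), the same signs as Pkp2, Dsc2 and Perp.

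In the adherens junction list 11 of 12 genes were tested, and 6 rose and 4 fell in the first pair and 2 rose and 5 fell in the second (medians 0.70 and -0.55), beside 44.8% and 36.4% of all genes called. Log2 fold changes in the first and second pair were -1.60 ± 0.23 and -8.49 ± 0.33 for Cdh1 (E-cadherin), -2.16 ± 0.26 and -7.72 ± 0.36 for Nectin4, and 7.03 ± 0.39 and 1.47 ± 0.25 for Cdh2 (N-cadherin), all called. The second value for Cdh1 was -9.33 without 687g replicate 1. Nectin4 had 7 counts in 687g, so the standard error of its second value is below counting error. Hemidesmosomes hold cells to the basement membrane. The list of hemidesmosome genes and linking plakins gave 5 of 6 tested genes higher and 0 lower in pB3 against pB2. In 687g against Epcam hi it gave 0 higher and 1 lower, both beside the same shares. Plec and Dst, of the same plakin family as Dsp and Ppl, rose in pB3 by 3.45 ± 0.26 and 3.30 ± 0.23 and were not called in the second pair (0.09 ± 0.23 and 0.49 ± 0.21), though Dst passed there without pB2 replicate 1 or 2 (adjusted p = 0.0476 and 0.0396).

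Of 17 regulators of epithelial junction genes, all tested, 6 rose and 11 fell in pB3 against pB2 (median -2.95) and 5 rose and 8 fell in 687g against Epcam hi (median -0.79), again beside 44.8% and 36.4% of all genes called. Zeb1, a repressor of epithelial genes, was 297-fold higher in pB3 than in pB2 by count sums (counting interval 101 to 1444, from 3 counts) and 65.4-fold higher in 687g than in Epcam hi, which had 5 and 19 counts. Its log2 fold change there was 5.95 ± 0.34, and 7.06 without Epcam hi replicate 2. In the first pair the fitted value of 8.09 became 8.82 and 7.46 without pB2 replicates 1 and 2. Ehf, an epithelial ETS factor, had 908 and 1593 counts in pB2 against 4 and 0 in pB3, a fitted log2 fold change of -9.08 (adjusted p = 3.13e-09) that was -8.10 without pB3 replicate 2 and -13.26, against a library at 0, without replicate 1. In the second pair it was 85.8-fold lower (counting interval 15.0 to 3429, with 1 count in 687g). Ovol1 was 22.0-fold lower in pB3 (counting interval 5.76 to 187) and at least 12.3-fold lower in 687g, where it had 0 counts, against 3 counts over the line. Among 16 genes of desmosome assembly, turnover and shedding, 8 rose and 2 fell in the first pair (44.8% of all genes called) and 5 rose and 5 fell in the second (36.4% of all genes called). The membrane protease gene St14 (matriptase) changed by -2.62 ± 0.19 and -8.79 ± 0.28 on the log2 scale in the first and second pair, its inhibitor Spint1 by -1.89 ± 0.19 and -8.12 ± 0.31, and the raft scaffold gene Flot1 by 1.34 ± 0.29 and 1.04 ± 0.29, all called. The second value for Flot1 was 1.75 without Epcam hi replicate 1. In 687g St14 had 15 counts and Spint1 had 5, so the standard errors of their second values are below counting error.

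The genes whose log2 levels over the 8 libraries were most like those of Pkp1, among 10289 compared, were Ddi2 (r = 0.994), Esyt2 (r = 0.994) and Adam19 (r = 0.993). Adam19, a membrane metalloprotease gene, had 3 counts in pB2 and 35.4 ± 0.423, 18.5 ± 0.0492 and 138 ± 8.84 CPM in pB3, Epcam hi and 687g. Ddi2 and Esyt2 shared the order with a smaller range, from 23.8 ± 5.00 to 83.3 ± 11.2 and from 69.7 ± 10.7 to 396 ± 48.3 CPM between pB2 and 687g. Most like Dsp were Ildr1 (r = 0.995), Grip1 (r = 0.993) and Rab32 (r = 0.992). Ildr1, a receptor of tricellular junctions, had 29.2 ± 2.17 CPM for pB2 and 25.5 ± 1.15 for Epcam hi, against 0.629 ± 0.156 for pB3 and 3 counts for 687g. With 4 lines of 2 libraries such values describe these libraries only.

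Around Pkp1, 5 of the 7 tested genes among its 10 nearest protein-coding neighbours were higher in pB3 than in pB2, all of them on the side of lower coordinates, beside 44.8% of all genes called and 21.6% higher. Tnnt2, a troponin gene of striated muscle 19.1 kb away, rose by 7.19 ± 0.31 (adjusted p = 5.79e-10), and Tnni1, a troponin gene 60.4 kb away, went from 1 count in pB2 to 234 in pB3 (adjusted p = 2.35e-07). Lad1, between them, whose product ladinin belongs to the basement membrane zone, rose by 0.78 ± 0.25 (adjusted p = 0.0205), Csrp1 by 0.89 ± 0.18 (adjusted p = 0.00100) and Phlda3 by 0.54 ± 0.18 (adjusted p = 0.0262). The call of Lad1 was lost without pB2 replicate 1 or either pB3 library (adjusted p from 0.0652 to 0.211), and that of Phlda3 without any 1 of the pB2 and pB3 libraries (0.0829 to 0.284). Tnnt2 stood at 3.26 and 1.96 CPM for pB2, 362 and 385 for pB3, 612 and 445 for Epcam hi, and 620 and 798 for 687g. It shared with Pkp1 the low level of pB2 but was not called in 687g against Epcam hi (0.42 ± 0.22, adjusted p = 0.153; 0.67, adjusted p = 0.0424, without Epcam hi replicate 1), whereas Tnni1 rose there by 4.42 ± 0.43 (adjusted p = 1.89e-06). Lad1 fell in that pair (-1.22 ± 0.25, adjusted p = 0.00159).

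**Figure D4:**
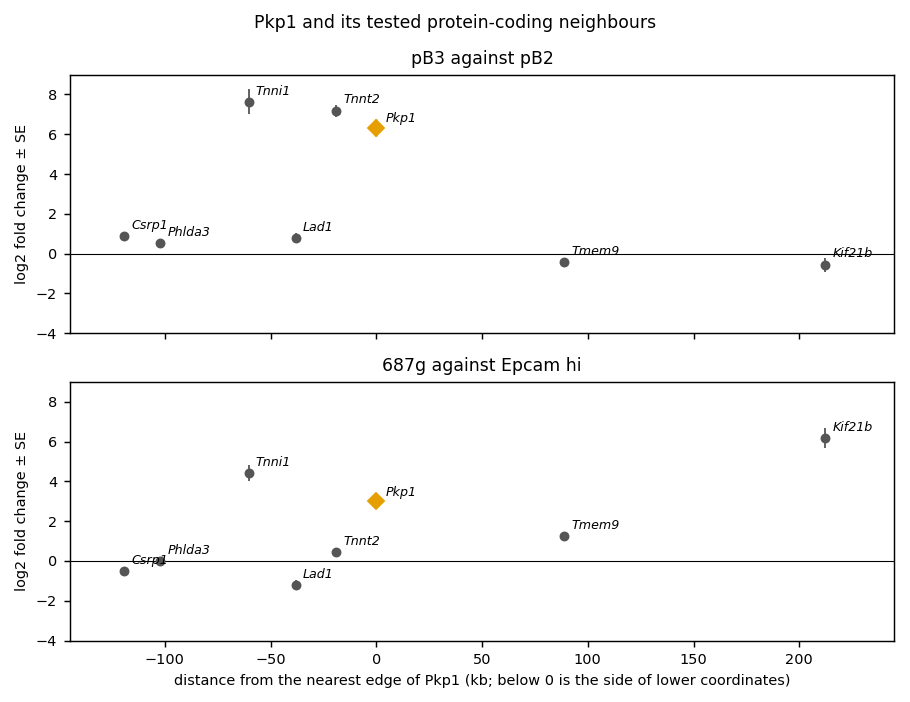
Log2 fold change (bars, 1 standard error) of Pkp1 and its 7 tested neighbours by distance in kilobases from the nearest edge of Pkp1, in pB3 against pB2 (top) and 687g against Epcam hi (bottom). Tnnt2 and Tnni1 rise with Pkp1 in the first pair, Tnni1 as a fitted value that rests on 1 count in pB2, and Lad1 between them stays below 1.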

How the data were processed

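The labels' protocols name an RNeasy extraction and a KAPA mRNA library kit. From the submitters' processing notes and the series' design text, the aligner was STAR 2.6.1a on GRCm38 (mm10) with Ensembl genes, and featureCounts assigned single-end reads by strand, in the reverse setting. The treatment of multi-mapping reads is not given in the sources used here. The authors deposited raw counts for 53379 genes per library. GENCODE M21 gave symbols, positions and exon lengths for 53274 of them.

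With edgeR 4.0.16 in R 4.3.3, genes passing filterByExpr (15890) were scaled by TMM and fitted over all 8 libraries with 1 coefficient per line (quasi-likelihood F tests, two-sided, Benjamini-Hochberg over all genes, call at adjusted p under 0.05). The residual degrees of freedom were 4 and the median prior 9.35. Intervals are 95%. Where a line had 1 to 3 counts, folds are ratios of count sums with an exact counting interval, and at 0 a bound against 3 counts over the line; both cover counting error only. DESeq2 1.42.0 and limma-voom (limma 3.58.1) were alternatives. No 2 libraries of a line were identical, and the code was tested on simulated data.

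All 9 genes were named. From each list, up to 3 genes called in both pairs of a mouse model were named by the larger of their smaller folds, or 2 called in either pair if none was in both. Genes like Pkp1 and Dsp were the 3 with the highest Pearson r among genes of at least 10 CPM in their highest line. Of the 5 nearest protein-coding genes on each side of Pkp1, those called in its direction in pB3 against pB2 were named. The members and lists were chosen with earlier results of these data known.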

Additional observations from a re-analysis of the deposited data

Results flagged for a closer look

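For 7 of the 9 desmosome genes the log2 fold change of 687g against Epcam hi differed from that of pB3 against pB2 by the test of the difference itself (edgeR, all 8 libraries). The difference was -1.45 for Dsp, -3.33 for Pkp1, -1.75 for Pkp2, -1.85 for Pkp3, -9.31 for Dsc2, -4.67 for Perp and -6.75 for Ppl. Dsp and Pkp3 fell in both pairs and fell further in the second, and Pkp1 rose in both and rose further in the first. For Dsc2, which had 1 count in pB2, the fitted difference moved to -8.62 and -11.51 without pB2 replicates 1 and 2 and to -8.17 without Epcam hi replicate 1. For Ppl it moved to -8.10 and -6.09 without 687g replicates 1 and 2.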

How the results depend on the processing

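Of 936 fold changes recomputed for the 9 genes under the alternatives (DESeq2, limma-voom, RLE size factors, total counts, no filter, the lines compared alone, the replicate block and each library left out), 898 kept direction and side of the threshold, 11 lost and 16 gained a call, and 11 turned direction, none of these called. Of the last, Jup between the pairs was -0.066 with limma-voom. The others came with single libraries left out, over which Dsp in Epcam hi against pB2 ran from -0.30 to 0.23 and Pkp2 in 687g against pB3 from -0.21 to 0.078. Dsg2 between the pairs ran from -4.63, which was called, to 0.52. Jup ran from -0.88 to 0.24 in 687g against Epcam hi, from -0.41 to 0.70 in 687g against pB3, from -0.69 to 0.40 in 687g against pB2, and from -0.59 to 0.54 between the pairs. The cause was not tested. For genes named beside the 9, leaving out single libraries was added after the data were seen, and uncalled values turned for Plec and Phlda3 in 687g against Epcam hi (ranges -0.15 to 0.47 and -0.15 to 0.15) and for Cdsn in pB3 against pB2 (-0.55 to 3.80).

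The count of genes higher in pB3 than in Epcam hi went from 1 to 2, with Dsg2 added, under DESeq2, without a filter and with the replicate block, and ranged from 1 to 2 with single libraries left out, as did that higher in 687g than in pB3. Other counts of called members stayed within 1.5 times. The Pkp1 share was 43.5% for pB3, 11.3% for Epcam hi and 78.1% for 687g with the longest transcript as length, and 55.1% in pB3 without a length.

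Deviations of replicate 1 from its line mean had correlations of -0.098 to 0.173 between lines. Such values cannot show whether libraries of the same replicate number shared a batch, and the labels give no batch. The block moved calls over all genes from 7116 to 6995 in pB3 against pB2 and changed no call of a member but that of Dsg2 (adjusted p = 0.0282). Total counts shifted the median of all genes by -0.19 in pB3 against pB2 (37.6% of calls higher against 48.2%) and by -0.23 in 687g against pB2 (37.4% against 48.9%), where the Pkp2 call ended (0.48, adjusted p = 0.0686). Pkp2 also lost its call there without pB2 replicate 1 (adjusted p = 0.0645), and in pB3 against Epcam hi without pB3 replicate 1 (adjusted p = 0.0575). Levels near that of 3 counts are at the limit of detection.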

Other observations

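Perp is a known p53 target, and 13 of 14 other p53 target genes could be tested. In Epcam hi, where Perp was highest, 10 of the 13 were higher than in pB2 and 2 lower (median 1.86 against 0.06 over all genes), beside 25.8% and 25.6% of all genes. In 687g against Epcam hi 1 rose and 9 fell (median -1.37; 18.4% and 18.0% of all genes). In pB3 against pB2 the list gave 5 higher and 3 lower (median 0.42; 21.6% and 23.2% of all genes). In pB3 against Epcam hi, where Perp was lower (-1.99 ± 0.19), 0 of the list rose and 11 fell (median -1.49). Of all genes, 14.8% rose and 14.6% fell there. Perp was lower in 687g than in pB3 and pB2 (-1.84 ± 0.19 and -1.01 ± 0.19), while the list gave 6 higher and 2 lower against pB3 (12.8% and 12.9% of all genes) and 6 higher and 3 lower against pB2 (25.6% and 26.7% of all genes). Eda2r, a receptor of the TNF receptor family, had 9.73 ± 1.84 CPM for pB2, 42.2 ± 2.53 for pB3, 140 ± 3.59 for Epcam hi and 4.38 ± 0.117 for 687g (SD, n = 2), the same order of lines as Perp. It rose by 2.12 ± 0.20 in pB3 against pB2 and fell by 4.99 ± 0.22 on the log2 scale in 687g against Epcam hi. Fas fell in both pairs (-4.67 ± 0.39 and -3.31 ± 0.51, the latter -2.71 without Epcam hi replicate 1), and had 8 counts in 687g. The sestrin gene Sesn1 fell in the first pair and rose in the second (-1.85 ± 0.28 and 1.75 ± 0.28). The list was chosen with results of these data known. A role of p53 in these differences was not tested.

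Among the 10 nearest protein-coding neighbours of Perp, 6 were tested, of which 4 were lower in 687g than in Epcam hi and 0 higher (median -1.70), as Perp was, beside 36.4% of all genes called and 18.0% lower. Hebp2, 299 kb away, fell by 4.20 ± 0.23 and Tnfaip3, an inhibitor of NF-kappa B signalling 144 kb away, by 2.56 ± 0.25 on the log2 scale. Around Dsp, which fell there, 3 of 9 tested neighbours were called in the same comparison, 1 lower and 2 higher, a share near that of all genes. Around Pkp3, which also fell there, 4 of 7 were lower and 1 higher (median -0.63). Lower and higher neighbours were 2 and 0 of 7 tested around Ppl, and 1 and 1 of 8 around Pkp2. They were 2 and 3 of 7 around Pkp1, 1 and 2 of 6 around Jup, 0 and 1 of 4 around Dsg2, and 0 and 2 of 2 around Dsc2. Hebp2 and Tnfaip3 were named after their values were seen. So was Kif21b, a kinesin gene 212 kb beyond Pkp1, which was 6.18 ± 0.51 higher on the log2 scale in 687g than in Epcam hi (adjusted p = 3.70e-07), where it had 5 counts, and was not called in pB3 against pB2 (-0.55 ± 0.35, adjusted p = 0.222).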
